A study of Homo sapiens with 20 samples.

Results

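The mitochondrial mRNAs ND3, ND4L and ND4 were examined in 14 CMC sequencing libraries of K562, an established line from human chronic myelogenous leukaemia. The members were every listed position inside these genes, taken by RefSeq coordinates of GRCh38, mitochondrial chromosome. ND3 spans 10059 to 10404 (346 positions), ND4L 10470 to 10766 (297 positions) and ND4 10760 to 12137 (1378 positions). ND4L and ND4 share 7 positions, so the genes hold 2014 distinct positions of 16570 listed. The libraries fell into 4 groups, all treated with 0.5 M CMC. Rescued cells lacked NME6 and carried a wild-type NME6 cDNA (3 libraries), NME6 knockout cells lacked NME6 (4 libraries), RPUSD4 knockdown cells had reduced RPUSD4 (3 libraries), and control cells were wild type with a non-targeting guide RNA (4 libraries). Mitochondria were isolated by fractionation before RNA was extracted, and 6 samples without CMC entered only through the deposited differences. The labels do not say whether the knockout and rescued cells were clones or whether replicates came from separate cultures. The p-values thus cover the spread among these libraries and no more. NME6 and RPUSD4 transcripts and K562 markers were not analysed here, since only mitochondrial positions were read.

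ND3, ND4L and ND4 are membrane-embedded subunits of respiratory complex I, the enzyme that oxidises NADH and pumps protons across the inner mitochondrial membrane. ND4 is one of the antiporter-like proton-pumping subunits, while ND3 and ND4L are small subunits placed closer to the arm that binds NADH. All are read from the same polycistronic heavy-strand transcript. ND3 is released by excision of the tRNAs on both of its sides, while ND4L and ND4 stay together on a bicistronic mRNA with overlapping reading frames. Pseudouridine is an isomer of uridine that enzymes such as RPUSD4 make within RNA, and the CMC adduct it retains perturbs the copying of that base into cDNA. NME6 is a nucleoside diphosphate kinase family protein found in mitochondria.

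The deposited value of a position is a signed difference, CMC minus untreated, called the level here. It was taken to be in percentage points, which the values allow but no source states. The depth of the libraries is not known, no base was given for a position, and a level of exactly 0 may mean that no reads covered it. A member position therefore need not be a uridine. Over all listed positions the library mean was 0.0973 to 0.119 points in rescued cells, 0.0850 to 0.166 in knockout, 0.116 to 0.151 in knockdown and 0.0851 to 0.159 in control cells. Replicate 1 stood lowest in both the knockout and the control group. Within ND3, ND4L and ND4 identical negative levels (equal within 1e-09) recurred in 18 of 18 library pairs within a group, against 0 of 73 pairs between groups. In ND4 such shared values lay at 20 positions in rescued, 23 in knockout, 88 in knockdown and 21 in control libraries. If 1 untreated profile was subtracted per group, the spread between replicates leaves out its error, and a difference in the untreated profile cannot be told apart from one in the CMC profile.

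None of the 3 mRNAs stood out by its mean level. Over 14 libraries the mean was 0.127 points per position in ND3, 0.147 in ND4L and 0.143 in ND4, which ranked 9, 3 and 4 among the 13 mRNAs. The levels were spread thinly. The mean over libraries reached 1 point or more at 1 position of ND3, 0 of ND4L and 7 of ND4, and these carried 3.62% of the summed level of ND3 and 4.15% of that of ND4. A level of 1 point or more in at least 1 library was seen at 58 positions of ND3, 39 of ND4L and 154 of ND4. Of these, 36, 15 and 95 reached it in exactly 1 library, and 0 did so in all 14.

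ND4, which encodes the antiporter-like subunit, had mean levels of 0.0947, 0.102 and 0.0861 points in rescued libraries, 0.102, 0.182, 0.174 and 0.168 in knockout libraries, 0.199, 0.158 and 0.147 in knockdown libraries and 0.0796, 0.167, 0.175 and 0.168 in control libraries. The rescued libraries sat together at the low end, below all knockdown libraries and level with replicate 1 of the knockout and of the control. ND4L, its partner on the same mRNA, had 0.101, 0.128 and 0.0900 points in rescued, 0.0859, 0.198, 0.165 and 0.172 in knockout, 0.178, 0.188 and 0.150 in knockdown and 0.0899, 0.169, 0.179 and 0.169 in control libraries. Replicate 1 of knockout and control was low here too, and the rescued libraries lay below all the remaining ones. ND3, the small subunit mRNA upstream, had 0.143, 0.118 and 0.0904 points in rescued, 0.0804, 0.146, 0.169 and 0.101 in knockout, 0.184, 0.0894 and 0.0918 in knockdown and 0.0905, 0.143, 0.160 and 0.173 in control libraries. In ND3 the 4 groups overlapped throughout.

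**Figure D1:**
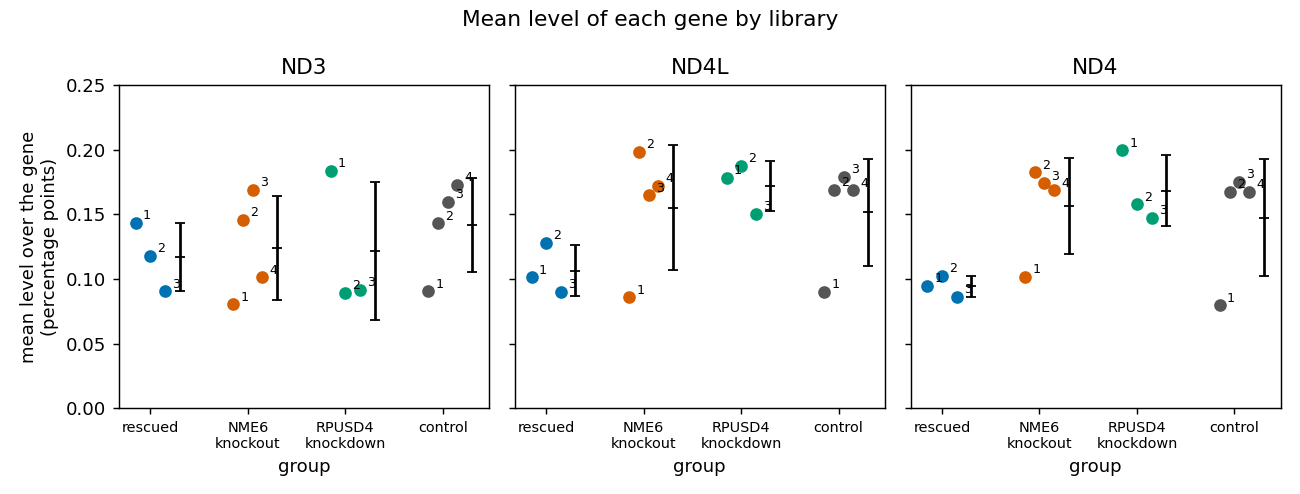
Mean level over all positions of ND3, ND4L and ND4 (percentage points, vertical axis) in each library, by group, with the replicate number beside each point and bars for the mean ± SD (n = 3, 4, 3 and 4). In ND4 the 3 rescued libraries lie between 0.0861 and 0.102 points, as do or nearly do the replicate 1 libraries of knockout (0.102) and control (0.0796), while the other libraries lie at 0.147 or above.

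As group means, ND4 had 0.0944 ± 0.00811 points in rescued cells (SD, n = 3), 0.157 ± 0.0371 in knockout (n = 4), 0.168 ± 0.0275 in knockdown (n = 3) and 0.147 ± 0.0454 in control cells (n = 4). ND4L followed the same order with 0.106 ± 0.0195, 0.155 ± 0.0484, 0.172 ± 0.0194 and 0.152 ± 0.0414 points in these groups. ND3 had 0.117 ± 0.0264 points in rescued, 0.124 ± 0.0404 in knockout, 0.122 ± 0.0536 in knockdown and 0.142 ± 0.0362 in control cells. From the highest, the order was knockdown, knockout, control and rescued in ND4 and ND4L, and control, knockout, knockdown and rescued in ND3. Control replicate 1 set the place of the control group in ND4 and ND4L. Without it, knockdown minus control was -0.00185 points in ND4 and -9.1e-05 in ND4L, and knockout minus control -0.0134 and -0.0170, which puts the control mean of ND4 above both and that of ND4L level with the knockdown mean. With all libraries, neighbours in these orders differed by less than their SD, except control and rescued in ND4 and ND4L, whose gap exceeded the SD of both groups.

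The comparison of rescued with knockout cells asked which levels followed the return of NME6. The ND4 mean differed by -0.0622 points (SE 0.0297, 95% interval -0.126 to 0.00145), which did not pass the test (limma over 37 mitochondrial genes, Benjamini-Hochberg adjusted p = 0.289). ND4L differed by -0.0488 points (SE 0.0314, limma Benjamini-Hochberg adjusted p = 0.409) and ND3 by -0.00686 points (SE 0.0312, limma Benjamini-Hochberg adjusted p = 0.993). Against control cells the rescued cells differed by -0.0530 points in ND4, -0.0452 in ND4L and -0.0244 in ND3 (limma Benjamini-Hochberg adjusted p = 0.602, 0.602 and 0.784). In both comparisons 0 of 37 genes passed (0% of those tested), and an unadjusted p under 0.05 was found for 5 genes against knockout and 4 against control, none of them ND3, ND4L or ND4. The rescued group cannot be told apart from any batch of its own.

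These 2 comparisons turned on replicate 1 of the knockout and of the control, which stood apart in earlier results of these data. Each was the lowest of its group in all 3 genes. Leaving them out therefore had to raise both reference means, so the fits without them are no independent support for a lower level in rescued cells. Without both libraries, ND4 fell by 0.0805 points in rescued against knockout cells (limma Benjamini-Hochberg adjusted p = 0.00226) and by 0.0756 against control cells (0.00339). ND4L then fell by 0.0719 points against knockout cells (0.00397) and fell by 0.0658 points against control cells (0.00569). ND3 did not pass, with differences of -0.0214 and -0.0414 points (0.592 and 0.251). With these libraries out, 12 of 37 genes were called against knockout (32.4%) and 14 against control (37.8%), all of them lower in rescued cells and ND4 and ND4L among them. Leaving out 1 library at a time gave no call for the 3 genes.

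**Figure D2:**
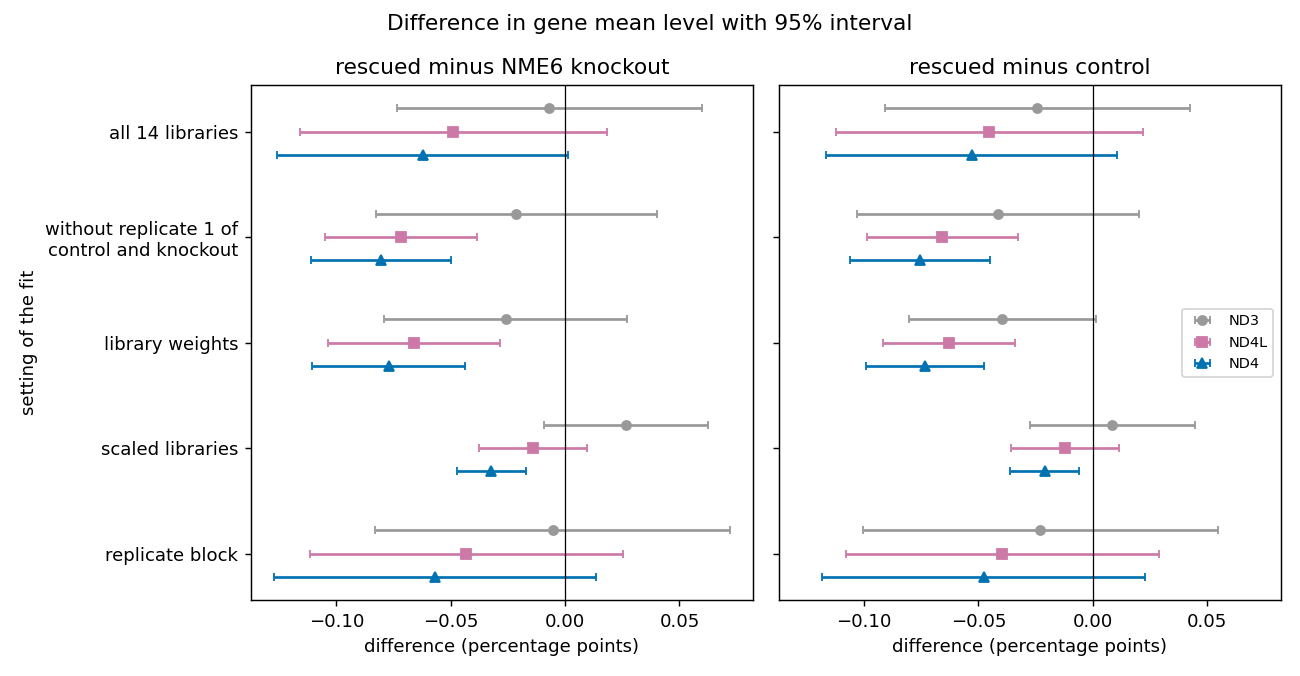
Differences in mean level (percentage points, horizontal axis) of ND3, ND4L and ND4 for rescued minus knockout cells (left) and rescued minus control cells (right), with 95% intervals, under 5 settings of the fit. ND4 stays below 0 in all 5, with intervals that exclude 0 without replicate 1 of control and knockout, with library weights and after scaling, while ND3 crosses to the right of 0 after scaling.

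Letting limma weight the libraries by their fit gave similar values. ND4 fell by 0.0772 points in rescued against knockout cells (limma Benjamini-Hochberg adjusted p = 0.00253) and by 0.0734 against control cells (0.000501), with 12 and 18 of 37 genes called (32.4% and 48.6%). Such weights count a library less the further it lies from its group, so they can act on the same libraries left out above. Knockdown minus control in ND4 was 0.0208 points in the main fit, -0.000114 with weights and -0.00185 without those libraries. The weighted fits, here and at single positions below, are thus no independent support for a lower level in rescued cells. Scaling each library to a common mean over untested genic positions gave a rescued minus knockout difference of -0.0322 points in ND4 (limma Benjamini-Hochberg adjusted p = 0.00590). Those positions include the untested ones of ND3, ND4L and ND4, so the scaled gene differences are centred near 0 by the scaling itself. There 8 of 37 genes were called (21.6%), 4 higher and 4 lower. ND4L had -0.0139 points on the scaled values (limma Benjamini-Hochberg adjusted p = 0.372). ND3 had 0.0267 points, the opposite sign from the unscaled difference (limma Benjamini-Hochberg adjusted p = 0.286). Against control the scaled ND4 difference was -0.0211 points and missed the threshold (limma Benjamini-Hochberg adjusted p = 0.0773).

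The share of positions listed at 0 moved with the groups. In ND4 it was 13.8% to 18.3% in rescued, 31.6% to 63.2% in knockout, 29.6% to 52.0% in knockdown and 19.2% to 53.8% in control libraries. In ND4L it was 15.5% to 19.2%, 25.3% to 77.4%, 29.6% to 47.1% and 19.5% to 49.5% in the same groups, and in ND3 23.1% to 34.1%, 53.8% to 76.9%, 52.3% to 72.3% and 34.4% to 76.6%. Rescued libraries thus had the fewest positions at 0 in each gene. Averaged over positions not at 0, ND4 had 0.112 ± 0.00861 points in rescued, 0.284 ± 0.0213 in knockout, 0.284 ± 0.0224 in knockdown and 0.205 ± 0.0225 in control cells. By that mean, ND4 differed by -0.172 points between rescued and knockout cells (limma Benjamini-Hochberg adjusted p = 9.4e-07), by -0.0921 between rescued and control cells (0.000952) and by 0.0794 between knockout and control cells (0.00188). Of the 37 genes 40.5%, 21.6% and 37.8% passed in these comparisons. Knockdown minus control was 0.0797 points in ND4 (limma Benjamini-Hochberg adjusted p = 0.00350), where 5 of 37 genes passed (13.5%), all higher in knockdown cells, and 13 of 13 mRNAs were higher. A gene's mean over all positions is this mean times the share of its positions not at 0. Over all positions, ND4 differed by 0.00919 points for knockout and 0.0208 for knockdown minus control (limma Benjamini-Hochberg adjusted p = 0.991 and 0.974). The higher means not at 0 in knockout and knockdown cells went with more positions left out on average. Whether positions at 0 were uncovered was not tested.

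**Figure D3:**
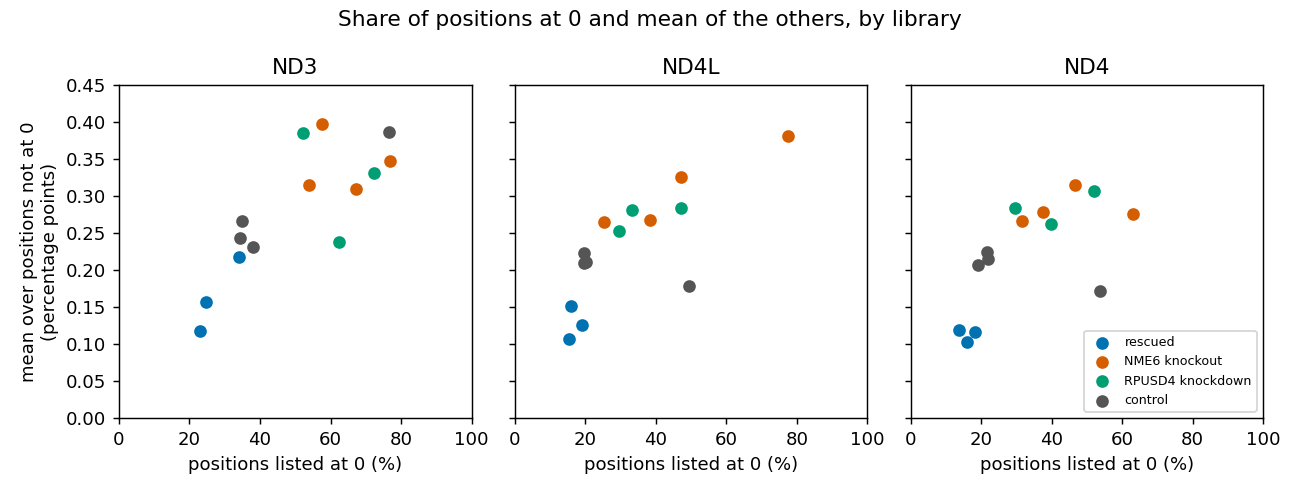
Positions listed at 0 (percent of the gene, horizontal axis) against the mean level of the remaining positions (percentage points, vertical axis) in each library, by group, for ND3, ND4L and ND4. In ND4 the rescued libraries lie at 13.8% to 18.3% and near 0.112 points, while knockout and knockdown libraries lie at 29.6% or more and near 0.284 points.

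Restricting the mean to positions with a level other than 0 in all 14 libraries, a choice made after the data were seen, gave every library the same positions. The libraries with the most positions at 0, such as knockout replicate 1 (63.2% of ND4), largely set which positions stayed. The choice can thus favour positions high in those libraries over the rescued ones, which had the fewest at 0, and this was not tested. The restriction left 16 positions of ND3, 33 of ND4L and 211 of ND4. ND4 then had 0.258, 0.262 and 0.227 points in rescued, 0.332, 0.457, 0.454 and 0.446 in knockout, 0.479, 0.418 and 0.429 in knockdown and 0.249, 0.414, 0.446 and 0.428 in control libraries. The rescued libraries lay below all knockout and knockdown libraries, and only control replicate 1 fell among them. ND4 fell by 0.173 points in rescued against knockout cells (limma over 20 genes, Benjamini-Hochberg adjusted p = 0.0224), and ND4L fell by 0.221 points (0.0220), with 6 of 20 genes called (30%). Against control the differences were -0.135 points in ND4 and -0.185 in ND4L and missed the threshold (limma Benjamini-Hochberg adjusted p = 0.0909 and 0.0830). Without replicate 1 of knockout and control, the ND4 differences were -0.203 points against knockout and -0.180 against control (limma Benjamini-Hochberg adjusted p = 1.3e-05 and 6.5e-05), with 13 and 15 of 20 genes called (65% and 75%). ND3 passed in none of these fits on common positions, with -0.0644 points against knockout and -0.0519 against control (limma Benjamini-Hochberg adjusted p = 0.724 and 0.789).

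Loss of NME6 or RPUSD4 gave small differences in the 3 gene means. Knockout minus control was -0.0175 points in ND3, 0.00358 in ND4L and 0.00919 in ND4 (95% interval for ND4 -0.0497 to 0.0681, limma Benjamini-Hochberg adjusted p = 0.991 for all 3). Knockdown minus control was -0.0200 points in ND3, 0.0205 in ND4L and 0.0208 in ND4 (95% interval for ND4 -0.0429 to 0.0844, limma Benjamini-Hochberg adjusted p = 0.974 for all 3). Knockout minus knockdown was 0.00250, -0.0169 and -0.0116 points in ND3, ND4L and ND4 (limma Benjamini-Hochberg adjusted p = 0.963, 0.953 and 0.953). In each of these comparisons 0 of 37 genes passed (0%), with an unadjusted p under 0.05 for 1, 1 and 3 genes. The knockout and knockdown comparisons with control share the control libraries.

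Along ND4 the lower group mean of the rescued libraries, which did not pass the test with all libraries, was not set by a few places. In consecutive windows of 50 bases, the rescued mean was below the knockout mean in 26 of 28 windows, below the knockdown mean in 25 and below the control mean in 27, and it was the lowest of the 4 groups in 24. In ND4L it was the lowest in 4 of 6 windows, and in ND3 in 3 of 7. These levels are unscaled, and windows of other genes were not tallied. Over all listed positions the rescued mean was also lowest, at 0.111 points against 0.143 in knockout, 0.137 in knockdown and 0.140 in control cells. Cut into 3 parts of equal length, ND4 had 0.114 ± 0.00554 points in rescued and 0.172 ± 0.0414 in knockout cells in its 5′ part. In its 3′ part it had 0.0762 ± 0.00834 points in rescued and 0.154 ± 0.0308 in knockout cells. Control ND4 had 0.141 ± 0.0403 points in the 5′ part and 0.157 ± 0.0580 in the 3′ part. ND3 differed from the others in where zeros lay. Its 5′ part was at 0 at 43.5% of positions in rescued, 79.3% in knockout, 86.7% in knockdown and 58.04% in control cells (means over libraries), against 16.4%, 37.3%, 37.9% and 34.7% in its 3′ part.

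**Figure D4:**
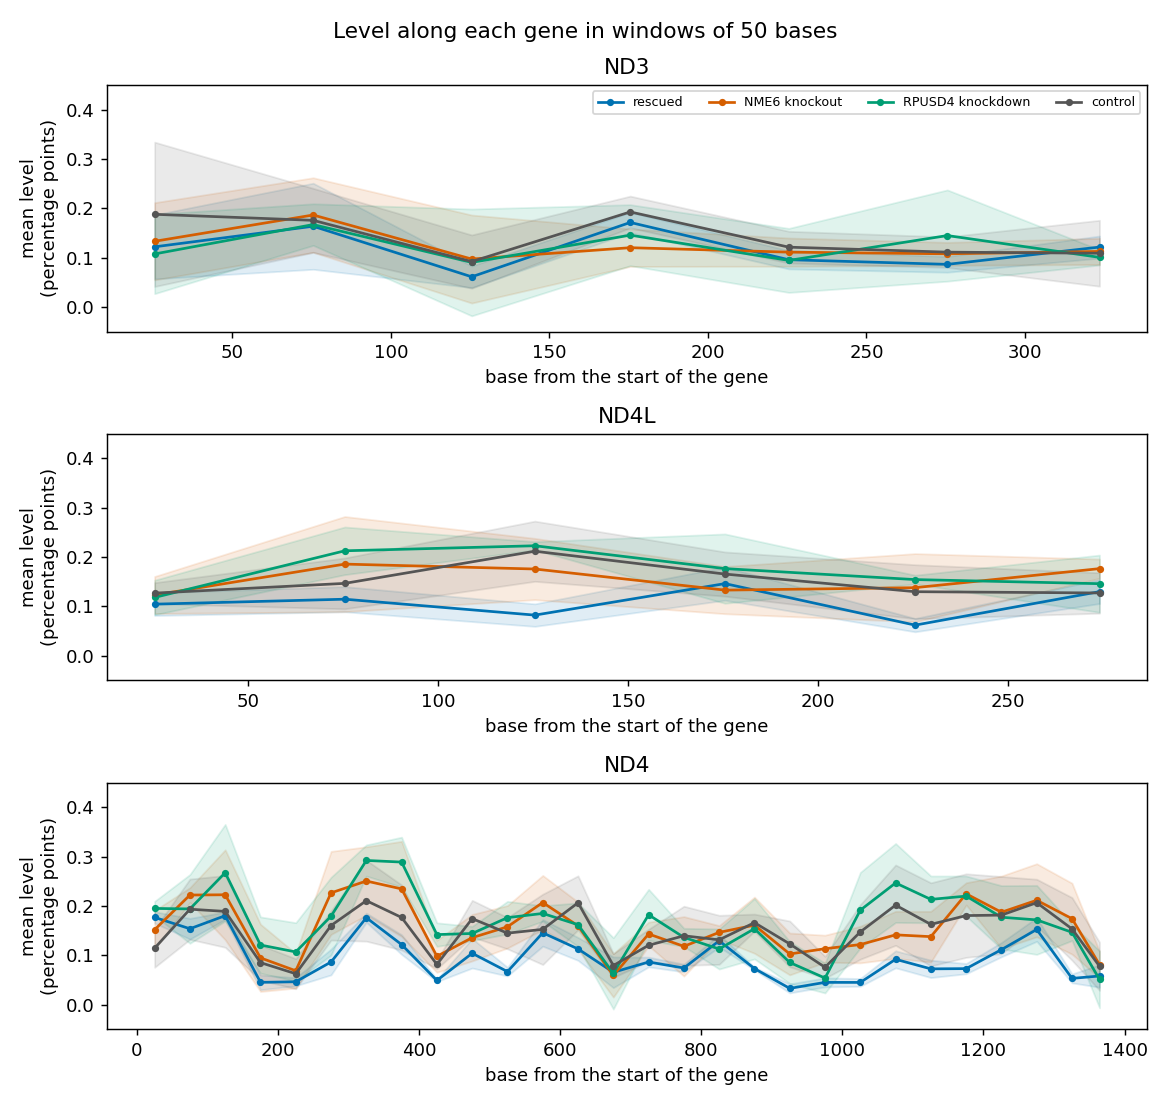
Mean level in windows of 50 bases (percentage points, vertical axis) along ND3, ND4L and ND4 (base from the start of the gene, horizontal axis), one line per group with a band of ± SD over libraries. In ND4 the rescued line is the lowest of the 4 in 24 of 28 windows, while in ND3 it is the lowest in 3 of 7.

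The highest position of ND3 by the mean over all libraries was 10381, base 323 of the gene and the middle base of codon 108. It had 1.34, 1.73 and 1.86 points in rescued, 1.36, 1.84, 1.66 and 2.08 in knockout, 1.5, 1.74 and 2.07 in knockdown and -0.105, 1.34, 2.14 and 1.73 in control libraries. It reached 1 point or more in 13 of 14 libraries, the most of any position in the 3 genes, and only control replicate 1 was below 0. The next in ND3, 10080 (base 22) and 10153 (base 95), were uneven. Position 10080 had -0.129, 0.109 and -0.00615 points in rescued libraries and reached 2.61 in a knockout, 2.90 in a knockdown and 1.74 in a control library, with 1 library at 0 in each of these last 3 groups.

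ND4L had no position with a mean of 1 point or more, and its highest were 10554 (base 85, mean 0.928), 10576 (base 107, mean 0.873) and 10650 (base 181, mean 0.836). Position 10576, the middle base of codon 36, had 0.0905, 0.182 and 0.233 points in rescued, 1.11, 1.10, 0.260 and 1.76 in knockout, 1.04, 1.10 and 1.09 in knockdown and 0.732, 1.27, 1.27 and 0.989 in control libraries. The 3 rescued libraries lay below all 11 others, knockout replicate 3 being the closest. The position was under the mean of 1 point needed for the test, and it did not pass where 0.5 points were required. Position 10554 had 0.703 ± 0.253 points in rescued, 0.943 ± 0.400 in knockout, 1.33 ± 0.889 in knockdown and 0.779 ± 0.363 in control cells, and the 4 groups overlapped.

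The 7 tested positions of ND4 were 10814, 10880, 11032, 11115, 11365, 11827 and 11929, that is, bases 55, 121, 273, 356, 606, 1068 and 1170 of the gene. Of these, 11032, 11365, 11827 and 11929 are at codon position 3, 10814 and 10880 at position 1 and 11115 at position 2. The highest, 10880 in codon 41, had 1.26, 1.71 and 1.59 points in rescued, 0.669, 1.74, 1.18 and 0.587 in knockout, 3.23, 2.01 and 2.23 in knockdown and 1.19, 1.40, 1.60 and 2.19 in control libraries. All 3 knockdown libraries lay above all knockout libraries at 10880, and they overlapped the control libraries. The difference was -1.44 points for knockout minus knockdown (SE 0.438, 95% interval -2.41 to -0.483) and 0.894 for knockdown minus control (SE 0.438), and neither passed (limma over 149 positions, Benjamini-Hochberg adjusted p = 0.0851 and 0.499). Where a median of 1 point was required in place of the mean, which tests fewer positions, 10880 was lower in knockout than in knockdown cells (limma Benjamini-Hochberg adjusted p = 0.0325), where 9.68% of the tested positions passed.

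Position 11929, the third base of codon 390 of ND4, had 0.454, 0.593 and 0.520 points in rescued, 1.04, 1.79, 2.07 and 1.26 in knockout, 0.993, 0.705 and 1.71 in knockdown and 0.480, 0.835, 0.836 and 1.36 in control libraries. All rescued libraries lay below all knockout libraries, and they overlapped the control libraries at replicate 1. Rescued minus knockout was -1.02 points (SE 0.305, 95% interval -1.69 to -0.349), short of the threshold (limma Benjamini-Hochberg adjusted p = 0.0797). Knockout minus control was 0.661 points (SE 0.282, limma Benjamini-Hochberg adjusted p = 0.768). Without replicate 1 of knockout and control, 11929 fell by 1.18 points in rescued against knockout cells (limma Benjamini-Hochberg adjusted p = 0.0316), where 14.8% of the tested positions passed. With library weights it fell by 1.24 points (limma Benjamini-Hochberg adjusted p = 0.00403), where 18.8% passed. The base before it, 11928, had 0.423 ± 0.0997 points in rescued, 1.20 ± 0.333 in knockout, 0.982 ± 0.494 in knockdown and 0.719 ± 0.309 in control cells.

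Position 11827, the third base of codon 356, had 0.287, 0.723 and 0.313 points in rescued, 0.414, 0.97, 0.681 and 0.861 in knockout, 2.71, 1.27 and 0.545 in knockdown and 0.328, 1.67, 2.27 and 2.37 in control libraries. Apart from control replicate 1, the control libraries lay above every rescued and knockout library. Rescued minus control was -1.22 points (SE 0.541) and knockout minus control -0.929 points (SE 0.501), and neither passed (limma Benjamini-Hochberg adjusted p = 0.480 and 0.768). Position 11365 had 0.643, 0.659 and 0.486 points in rescued libraries, against 0.827, 1.66, 1.42 and 1.31 in control libraries, which did not overlap. Rescued minus control was -0.709 points (SE 0.331), short of the threshold (limma Benjamini-Hochberg adjusted p = 0.480). With library weights 11827 fell by 1.59 points and 11365 fell by 0.858 points in rescued against control cells (limma Benjamini-Hochberg adjusted p = 0.00380 and 0.00358), where 19.5% of tested positions passed. Position 11115 had 1.61, 0.868 and 2.66 points in knockdown, against 1.10, 0.572, 0.728 and 0.995 in control libraries, with a difference of 0.863 points (SE 0.373, limma Benjamini-Hochberg adjusted p = 0.499).

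**Figure D5:**
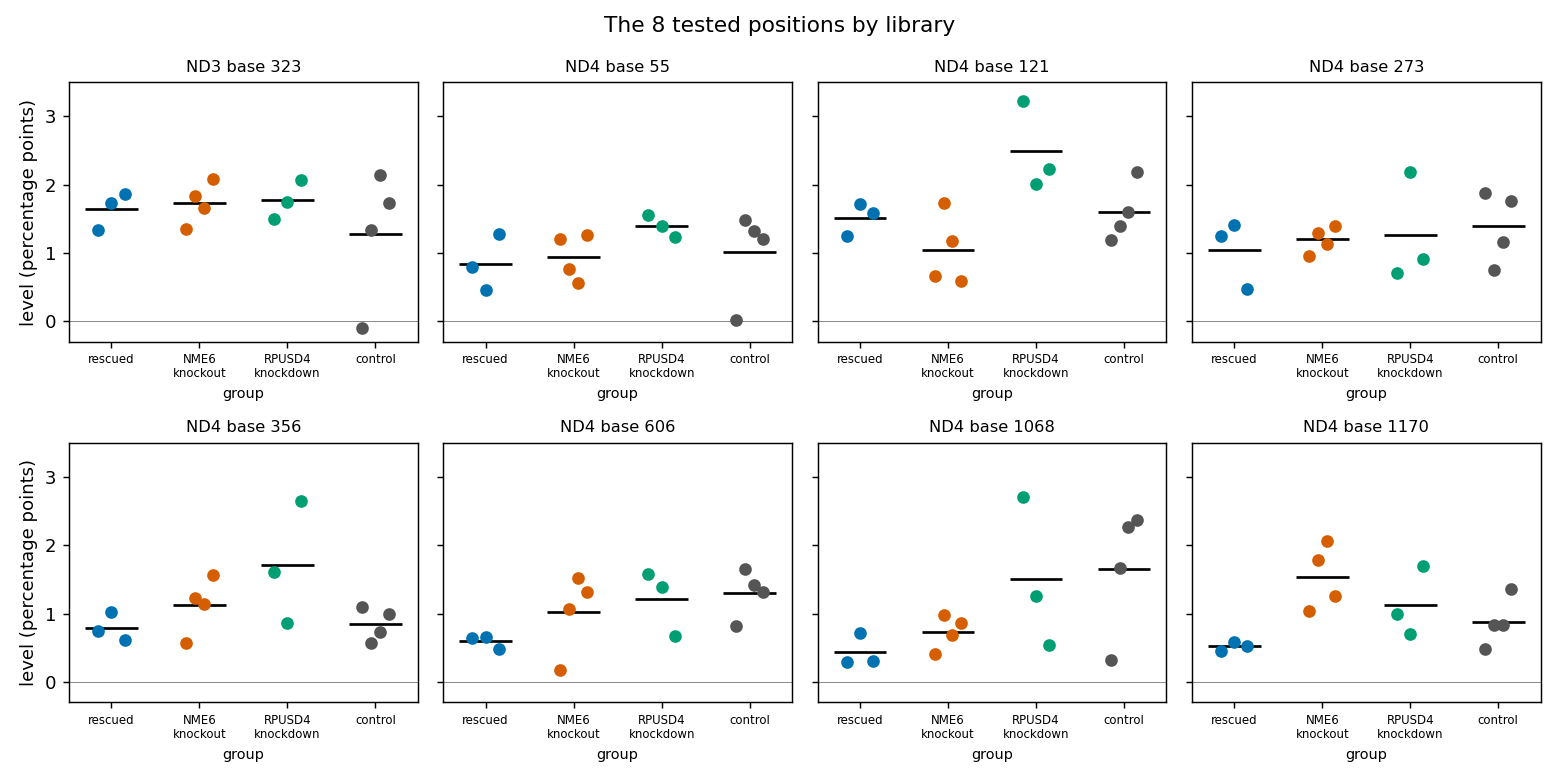
Level (percentage points, vertical axis) in each library at the 8 tested positions, 1 in ND3 and 7 in ND4, named by base of the gene, with a line at each group mean. At ND4 base 1170 (position 11929) the rescued libraries lie between 0.454 and 0.593 points and the knockout libraries between 1.04 and 2.07, and at ND4 base 121 (position 10880) the knockdown libraries lie at 2.01 or above.

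No member position passed in any of the 5 comparisons among 149 tested positions, of which 8 lay in ND3 or ND4. Of all tested positions 3.36% passed for rescued minus knockout, 2.68% for rescued minus control, 3.36% for knockout minus knockdown, 0% for knockout minus control and 0.671% for knockdown minus control, so 0 of 8 is close to the background (limma, Benjamini-Hochberg). At an unadjusted p under 0.05 there was 1 of 8 in each comparison, against 23, 14, 14, 7 and 13 of all 149 in the same order. By direction, 7 of 8 member positions were lower in rescued than in knockout cells (median -0.222 points), and 102 of all 149 were (median -0.403). Against control 7 of 8 were lower (median -0.254), and 94 of all 149 (median -0.153). For knockout minus knockdown 7 of 8 were lower (median -0.318), against 67 of 149 (median 0.00828). The lower tallies in rescued cells depended on the scale between libraries. With libraries scaled to a common mean, 4 of 8 members were lower and 4 higher than in knockout cells (median -0.00271 points), and 75 of 149 were lower (median -0.0237). Against control 4 of 8 were again lower and 4 higher (median -0.0589), and 67 of 149 lower (median 0).

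Requiring a mean of 0.5 points gave 88 member positions among 858 tested, and again 0 passed in any comparison. Overall 0.816% passed for rescued minus knockout, 0.583% for rescued minus control, 0.117% for knockout minus knockdown, and 0% for each of knockout and knockdown minus control (limma, Benjamini-Hochberg). On unscaled levels, 77 of the 88 were lower in rescued than in knockout cells (median -0.329 points), against 665 of 858 overall (median -0.253), and 77 of 88 were lower than in control cells (median -0.324), against 653 of 858 (median -0.199). By gene, 51 of 58 positions of ND4, 15 of 17 of ND4L and 11 of 13 of ND3 were lower in rescued than in knockout cells. For knockout minus control 41 of 88 were higher and 47 lower (median -0.0135 points), against 473 higher and 370 lower of 858 (median 0.0444).

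Without a filter on the level, 1850 member positions were among 13249 tested, those with a level other than 0 in at least 3 libraries. Of these members 6 passed for rescued minus knockout, 1 for rescued minus control, 9 for knockout minus knockdown, 3 for knockout minus control and 4 for knockdown minus control (limma, Benjamini-Hochberg). Over all 13249 positions 1.09%, 0.702%, 0.536%, 0.521% and 0.249% passed in these comparisons, and the members' shares did not exceed these. Most of the called members had levels under 0.5 points. Position 11269 of ND4, for example, was listed at 0 in all rescued and knockdown libraries, and had -0.119, -0.0909, -0.119 and -0.119 points in knockout and -0.0275, -0.0275, -0.0275 and -0.0137 in control libraries.

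Some high positions followed an adjacent base. Position 11929 was followed across the 14 libraries by 11928 (Spearman rho 0.952), 11827 by 11828 (0.912) and 11365 by 11366 (0.908), all within the same libraries and so with the same depth. At 10381 of ND3 the next base, 10382, averaged 0.697 points (rho 0.464), and at 10814 the base before was listed at 0 in all 14 libraries. Identical levels in adjacent bases were rare, at 0.842% of neighbouring pairs not at 0 in ND3, 0.362% in ND4L and 0.323% in ND4, against 0.469% over all positions.

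By place in the codon, ND4L was highest at the middle base in 12 of 14 libraries, and the lowest there in 0, with means over libraries of 0.139 points at the first, 0.159 at the middle and 0.144 at the third base. In ND4 the middle base was the highest in 6 and in ND3 in 8 of 14 libraries. These places in the codon rest on the assumed coordinates. The lengths of ND3 and ND4 leave 1 base after the last full codon, since polyadenylation completes the stop codon of such mRNAs.

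The gene means closest to ND4 across the 14 libraries were those of CYTB, the cytochrome b mRNA, and ND5, another antiporter-like subunit (Spearman rho 0.930 for each). ND4L was closest to ATP6 (0.908) and to ND4 (0.833), and ND3 to COX1 (0.855) and ND2 (0.802, shared with ATP8). All share library and depth. The other complex I mRNAs, ND1, ND2, ND5 and ND6, had lower means in rescued than in knockout cells in 4 of 4 (median -0.0451 points) and than in control cells in 4 of 4 (median -0.0391), and none passed. All 13 mRNAs were lower in rescued cells in both comparisons, with medians of -0.0338 and -0.0382 points. With libraries scaled to a common mean, 3 of the 4 other complex I mRNAs and 8 of 13 mRNAs were lower than in knockout cells (medians -0.0119 and -0.00488), and 17 of 37 genes were. That common mean is taken over positions of these same genes, which pulls such tallies toward an even split. Against control 3 of 4, 9 of 13 and 17 of 37 were lower on the scaled values (medians -0.00730 and -0.00676 for the 4 and the 13). On unscaled levels without replicate 1 of knockout and control, 3 of the 4 passed against knockout and 4 of 4 against control, all lower in rescued cells (limma Benjamini-Hochberg).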

How the data were processed

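CMC sequencing was read in 14 libraries, grouped by their labels. Mitochondrial RNA was extracted with TRIzol and libraries were made with a stranded total RNA kit, per the labels' protocols. Trimmomatic, STAR and SAMtools and the builds GRCh38 and hg38 are named, without versions, per the submitters' processing notes. Each deposited file gives 1 signed score for every position under a header that names a difference, with no unit. The sources used here do not give the step that turned reads into this score. That positions are GRCh38 coordinates was assumed, and the highest position of RNR2, 3067, base 1397 of the gene, is the known RPUSD4 target. The listed positions run from 2 to 16571, and this range was not checked against the length of the assumed reference. A shift of 1 base or more would change every base and codon position given. It was checked only at 3067, which lies outside ND3, ND4L and ND4. The shift within these genes could differ from that at 3067, so their bounds, bases and codons remain assumed.

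Gene means over all listed positions (37 genes) and single positions with a mean of 1 or more (149) were fitted with limma 3.58.1 in R 4.3.3 (empirical Bayes with trend) over all 14 libraries, two-sided, with Benjamini-Hochberg adjustment and a threshold of 0.05. The score can be negative, so no log or count model was used. Tables were handled in pandas 2.3.3 and numpy 2.4.6 under Python 3.11.15, and figures drawn with matplotlib 3.10.9. The fit was tested on simulated data, drawn as independent normal values with a large shift added to some features in rescued cells. Those values held no zeros, no shared negative levels and no library that stands apart. How the fit behaves with these traits was not tested. The files hold no depth, and intervals for counting error were not computed. The members, lists and settings were chosen with earlier results of these data known. Positions were named as the 3 highest in ND3 and ND4L and 5 highest in ND4, plus any past the threshold and the 2 smallest p-values per comparison.

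For knockout and control, deviations of same-numbered libraries correlated at 0.471, 0.286, 0.193 and 0.116 over tested positions, each above 0.1. The highest is for replicate 1 of both groups, which were both low, and knockout replicate 4 correlated slightly better with another number (0.121). A pairing by number would come from the data, not the labels, and the main fits use none. With the number as a block, knockout minus control in ND4 was 0.00919 points (limma Benjamini-Hochberg adjusted p = 0.992). The replicate number as a block was an alternative. The 6 untreated samples were not analysed on their own.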

Additional observations from a re-analysis of the deposited data

Results flagged for a closer look

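Control replicate 1 stood far below the other control libraries in ND4, with a mean level of 0.0796 points against 0.167 to 0.175, and in ND4L, with 0.0899 against 0.169 to 0.179. Of 22 sets of 4 values checked, these 2 had such a gap, and for a set taken alone chance gives about 1 in 20. The sets reuse the same control and knockout libraries over genes and positions, so they are not independent. Both gaps come from control replicate 1, which was also low over all listed positions, at 0.0851 points against 0.156 to 0.159 in the other control libraries. Replicate 1 of the knockout was also the lowest of its group, with 0.102 points in ND4 and 0.0859 in ND4L.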

How the results depend on the processing

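Differences below are in points, and the cause of each change was not tested unless the setting itself shows it. With the 2 groups alone, without a variance trend or with the replicate number as a block, no result crossed the threshold, and in the block fit rescued minus knockout was -0.0569 in ND4 and -0.0432 in ND4L. Member positions past the threshold numbered 0 in the fit reported, and without a level filter 6 (rescued minus knockout), 1 (rescued minus control), 9 (knockout minus knockdown), 3 (knockout minus control) and 4 (knockdown minus control). With library weights they numbered 1 against knockout and 2 against control in rescued cells, without replicate 1 of control and knockout 1 for rescued minus knockout, and with a median filter 1 for knockout minus knockdown. Calls gained for rescued minus knockout were -0.0659 in ND4L and -0.0772 in ND4 with weights, -0.0719 and -0.0805 without replicate 1 of both groups, -0.0322 in ND4 after scaling, -0.221 and -0.173 on positions common to all libraries, and -0.235 and -0.203 there without replicate 1. For rescued minus control they were -0.0628 in ND4L and -0.0734 in ND4 with weights, -0.0658 and -0.0756 without replicate 1 of both groups, and -0.228 and -0.180 on common positions without replicate 1. The mean over positions not at 0 gave calls for rescued minus knockout of -0.179 in ND3, -0.182 in ND4L and -0.172 in ND4, for rescued minus control of -0.0775 in ND4L and -0.0921 in ND4, for knockout minus control of 0.104 in ND4L and 0.0794 in ND4, and for knockdown minus control of 0.0797 in ND4.

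Signs turned where the difference was small. In ND3, positions not at 0 gave 0.0360 for knockdown and 0.0607 for knockout minus control, and common positions gave 0.0125 for knockout minus control, or 0.00163 without replicate 1. Scaling gave 0.0267 for rescued minus knockout and 0.00859 for rescued minus control in ND3, and a signed log2 scale 0.00798 for the first. In ND4L, knockout minus knockdown was 0.0365 on positions not at 0 and 0.00620 without replicate 1 of control and knockout, knockout minus control was -0.00337 on the log2 scale, and knockdown minus control was -9.1e-05 without replicate 1. In ND4, knockdown minus control was -0.000114 with weights and -0.00185 without replicate 1, and knockout minus knockdown was 0.00385 with weights, 0.00675 without replicate 1 and 0.0102 on common positions without replicate 1.

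Leaving out 1 library at a time gave no call. Rescued minus knockout ranged from -0.0805 to -0.0536 in ND4, -0.0719 to -0.0344 in ND4L and -0.0214 to 0.00805 in ND3, where the sign turned without knockout replicate 2 or 3 or rescued replicate 3. Knockout minus knockdown ranged from -0.0219 to 0.00675 in ND4, -0.0313 to 0.00620 in ND4L and -0.0136 to 0.0335 in ND3. Knockout minus control ranged from -0.0134 to 0.0275 in ND4 and -0.0170 to 0.0267 in ND4L, and knockdown minus control from -0.00185 to 0.0311 in ND4 and -9.1e-05 to 0.0314 in ND4L. Control replicate 1 turned the sign in these last 4, and for knockout minus control in ND4L the sign turned in 3 such fits. Depth is not in the files, so positions at 0 may be uncovered, above all in the 5′ part of ND3.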

Other observations

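Neighbouring positions 11959 and 11960 of ND4, base 1200 at codon position 3 and base 1201 at codon position 1, were chosen after their values were seen and lie under the level filter. Position 11959 had 0.147, 0.0689 and 0.0938 points in rescued, 0.25, 0.375, 0.252 and 0.251 in knockout, 0.558, 0.699 and 0.857 in knockdown and -0.00978, 0.0623, -0.0150 and 0.0264 in control libraries. The knockdown libraries stood above all others, and the knockout libraries above all rescued and control libraries. How many of all positions separate the groups in this way was not counted. Without a level filter, 11959 was higher in knockdown than in control cells by 0.689 points (limma over 13249 positions, Benjamini-Hochberg adjusted p = 0.000326) and fell by 0.422 points in knockout against knockdown cells (0.0108). Of all positions 0.249% and 0.536% passed in these comparisons. Neither 11959 nor 11960 was called for knockout minus control or for rescued minus knockout. Position 11960 had nearly the same levels, with 0.117 ± 0.0470 points in rescued, 0.305 ± 0.0934 in knockout, 0.703 ± 0.149 in knockdown and 0.00205 ± 0.0898 in control cells (SD, n = 3, 4, 3 and 4). The labels list a single untreated sample each for knockdown and rescued cells, and the part of the subtracted untreated profile in these levels was not tested.

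Position 12074 of ND4 had 0.0413, 0.0141 and 0.0840 points in rescued, 0.315, 0.282, 0.357 and 0.162 in knockout, 0 in all knockdown and 0, 0.0676, 0.137 and 0.0925 in control libraries. The knockout libraries lay above all others, and without a level filter it fell by 0.232 points in rescued against knockout cells (limma Benjamini-Hochberg adjusted p = 0.0287). In that fit 1.09% of all positions passed, and 12074 was not called for knockout minus control. The other members called for rescued minus knockout, 10205, 10886, 10890, 11269 and 11573, were all higher in rescued cells. Position 12074 too was chosen after its values were seen.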
